A study of Mus musculus with 8 samples.

Results

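The inhibitory neuron or neuroblast-like nuclei of the mouse ventricular-subventricular zone (V-SVZ) were 143 of 4475 nuclei, 3.20%. They were chosen by unique molecular identifiers (UMIs), each of which stands for 1 captured transcript. Barcodes with at least 300 genes and under 30% mitochondrial UMIs were kept as nuclei, and a kept nucleus was a member if it held at least 4 UMIs summed over Dlx6os1, Gad1, Gad2, Dlx1, Dlx2 and Adarb2 and fewer than 5 summed over the astrocyte genes Gpc5, Luzp2 and Rgs20. The name is a working one that rests on these genes and on Nrxn3.

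Single nuclei RNA sequencing (snRNA-seq) was performed on tdTomato-positive nuclei sorted from the V-SVZ of 8 mice at postnatal day 90, with 1 library per mouse. The 4 Tsc2 wt/wt mice (labelled Tsc2 wild) and the 4 Tsc2 mut/mut mice (labelled Tsc2 mutant/mutant) both carried a CAG-tdTomato reporter at Rosa26 that CRE recombinase turns on, and the mut allele comes from a conditional Tsc2 allele that CRE deletes. The study describes tamoxifen-induced Nestin-CRE-ERT2 and electroporated CAG-CRE plasmid, and which of them these mice received is not given in the sources used here. The sort was thus meant to take nuclei of cells, or of their descendants, in which CRE had acted on the reporter. The question put to these nuclei is which transcripts mark them, which separate young from mature neurons among them, and whether they differ with Tsc2 genotype.

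Neural stem cells of the postnatal V-SVZ produce neuroblasts that migrate to the olfactory bulb and become interneurons using the inhibitory transmitter GABA. Gad1 and Gad2 encode the enzymes that make GABA, Dlx1 and Dlx2 encode homeodomain transcription factors of inhibitory precursors, and Dlx6os1 is a long noncoding RNA from the Dlx5/Dlx6 locus. Young neurons are rich in cytoskeletal and migration transcripts such as doublecortin (Dcx), and these give way to transcripts of ion channels, receptors and synaptic vesicles as neurons mature. Tsc2 encodes tuberin, a brake on the mTORC1 kinase.

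The members' leading genes lie on GRCm38 as follows, by the GENCODE annotation. Dlx6os1 (ENSMUSG00000090063) spans chr6:6820189-6871592 on the minus strand and is annotated as antisense. Because the strand setting of the counting is not given in the sources used here, its reads cannot be told apart from those of the opposing Dlx6, which had 2 UMIs in members. Adarb2 (ENSMUSG00000052551), an RNA-binding relative of the adenosine deaminases that is used as a marker of caudally born interneurons, spans chr13:8202866-8768747 on the plus strand. Gad2 spans chr2:22622205-22693874 and Gad1 chr2:70553072-70602014, both on the plus strand. Nrxn3, a presynaptic adhesion receptor, spans chr12:88722876-90334935 on the plus strand, and Dcx spans chrX:143855842-143933311 on the minus strand.

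Among the rule genes, the 250 bases before an annotated RefSeq start (GRCm38.p6) held TAATTA, the core letters many homeodomain proteins bind, for Dlx6os1 and Adarb2 in windows that overlap no exon. Since the rule genes include homeodomain factors, these windows are shown, each 5′ to 3′ on the gene's strand. RefSeq gives Dlx6os1 2 starts, both inside the gene span above, and the window shown belongs to the downstream one. The window of the other start, chr6:6869534-6869783, overlaps a Dlx6os1 exon, holds TAATTA 130 and 74 bases before that start and is not printed. The Dlx6os1 window shown is chr6:6861684-6861933 on the minus strand and the Adarb2 window is chr13:8202616-8202865 on the plus strand, with TAATTA in capitals.
Dlx6os1: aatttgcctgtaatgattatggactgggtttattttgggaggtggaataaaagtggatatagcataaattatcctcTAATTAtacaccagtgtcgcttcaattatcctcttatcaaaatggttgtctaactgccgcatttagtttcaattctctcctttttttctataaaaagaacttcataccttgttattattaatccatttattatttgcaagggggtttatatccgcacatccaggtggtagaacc
Adarb2: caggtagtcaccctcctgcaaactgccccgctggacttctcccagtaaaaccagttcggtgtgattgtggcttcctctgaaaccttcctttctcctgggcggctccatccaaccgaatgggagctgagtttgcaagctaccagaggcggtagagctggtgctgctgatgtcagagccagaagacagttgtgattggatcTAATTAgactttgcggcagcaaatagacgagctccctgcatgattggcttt
TAATTA reads the same on both strands. It begins 174 bases before this Dlx6os1 start and 51 bases before the Adarb2 start. The windows of Gad1, Gad2, Dlx1 and Dlx2 did not hold these letters, while 4.84% of all 32851 promoter windows of this length did. A match is a description of the letters and not a binding site.

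The number of members differed widely between mice. Tsc2 wt/wt mice yielded 10 of 321, 26 of 746, 6 of 264 and 8 of 385 kept nuclei for replicates 1 to 4, and Tsc2 mut/mut mice yielded 45 of 870, 8 of 404, 40 of 1213 and 0 of 272. As shares these were 3.12%, 3.49%, 2.27% and 2.08% in Tsc2 wt/wt and 5.17%, 1.98%, 3.30% and 0.0% in Tsc2 mut/mut. The highest and the lowest share were both in Tsc2 mut/mut, and the groups overlapped. The 0 of 272 nuclei in Tsc2 mut/mut replicate 4 allows a share of up to 1.10%, and that mouse enters none of the gene comparisons that follow. The other classes counted in that mouse, astrocyte-like and oligodendrocyte progenitor-like nuclei, were also few. It held 7 astrocyte-like nuclei of 272, where the other Tsc2 mut/mut mice held 266 of 870, 108 of 404 and 352 of 1213 and the Tsc2 wt/wt mice 79 of 321, 257 of 746, 82 of 264 and 104 of 385, and it held 1 oligodendrocyte progenitor-like nucleus. The mean share of the Tsc2 wt/wt mice was 2.74% ± 0.672 (SD, n = 4) and that of the Tsc2 mut/mut mice 2.61% ± 2.18 (SD, n = 4), a difference of -0.125 percentage points that was smaller than the spread between mice (2-sided exact permutation test over 70 assignments, p = 0.829, with 0.0286 the smallest p possible). Without Tsc2 mut/mut replicate 4 the difference was 0.746 percentage points (exact permutation p = 0.571), and its sign also turned with several settings of the rule.

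**Figure D1:**
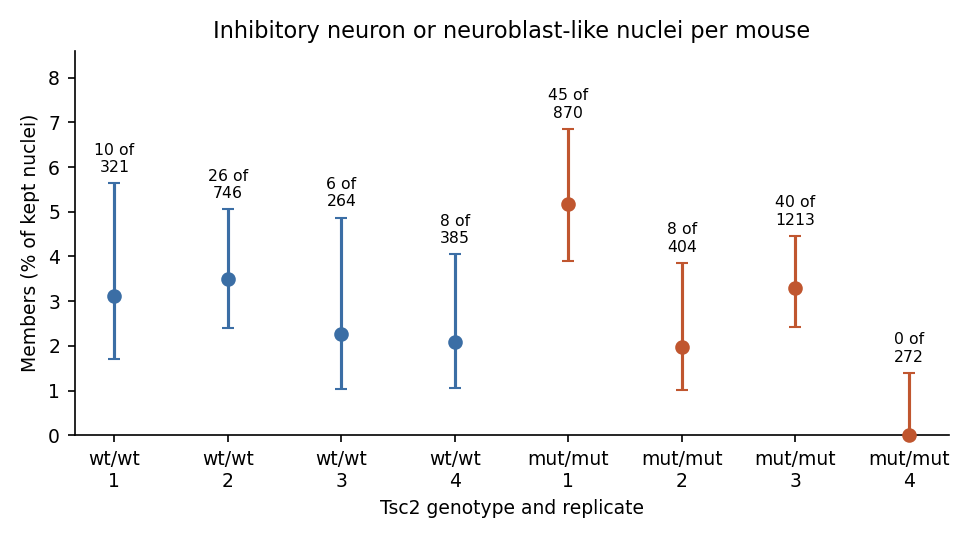
Members as percent of kept nuclei (y axis) in each mouse (x axis), with Wilson 95% intervals that cover counting error only, and the counts printed above. The Tsc2 mut/mut mice run from 0.0% to 5.17%, on both sides of the 4 Tsc2 wt/wt mice at 2.08% to 3.49%.

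Members were shallow profiles. The median member held 2033 UMIs and 1051 genes, against 2278 UMIs in the other 4332 kept nuclei. By mouse, median UMIs per member were 2244.5, 2318, 1924.5 and 2984 in Tsc2 wt/wt and 2063, 2274 and 1847.5 in the 3 Tsc2 mut/mut mice with members, and the groups overlapped. The difference in means of -306 UMIs was not larger than the spread (exact permutation test over 35 assignments, p = 0.343). Mitochondrial UMIs made up 4.69%, 6.81%, 8.52% and 4.39% of the members' UMIs in Tsc2 wt/wt and 10.8%, 8.69% and 10.5% in Tsc2 mut/mut. All 3 Tsc2 mut/mut mice lay above all 4 Tsc2 wt/wt mice, by 3.91 percentage points in the mean, with an exact permutation p of 0.0571 where 0.0286 is the smallest possible. Among members with at most 10% mitochondrial UMIs the difference was 0.481 percentage points (exact permutation p = 0.743). This limit cuts members on the compared quantity itself, so it cannot show whether the difference holds. In the other kept nuclei of the same mice the values were 7.28%, 9.19%, 7.90% and 6.66% in Tsc2 wt/wt and 9.17%, 10.2% and 10.4% in Tsc2 mut/mut, where the groups overlapped. Adjusted over these 3 comparisons of share, depth and mitochondrial UMIs by the Benjamini-Hochberg method, the permutation p values were 0.829, 0.514 and 0.171.

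The rule admitted nuclei at low counts. Among kept nuclei below the astrocyte limit, 20 held 3 UMIs over the inhibitory genes, just outside, and 7 held 4, just inside, while 2803 held 0. Of nuclei with enough inhibitory UMIs, 10 held 4 UMIs over the astrocyte genes, just inside, and 9 held 5, just outside. In all, 89 nuclei met both sums and were left out, with a median of 4177 UMIs. At least 2 of the 6 inhibitory genes were detected in 131 members, and 10 of the other 12 members had Adarb2 alone. No doublet caller was used. The sorter gated out doublets, and no barcode of a member occurred among the members of another library in any of the 28 pairs of libraries, which shared 0 or 1 barcodes of kept nuclei. Neither shows whether a member's barcode held more than 1 nucleus, which was not tested.

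Some members also carried transcripts of other classes. In 30 members the UMIs over the marker list of another class exceeded those over the inhibitory genes, with oligodendrocyte progenitor markers the most numerous in 10, oligodendrocyte markers in 9, astrocyte markers in 8, microglial markers in 2 and ependymal markers in 1. One member held 161 oligodendrocyte UMIs. Summed over 8 genes, oligodendrocyte markers, of which Mbp was the most abundant at 255 UMIs, reached 5540, 922, 12932 and 4200 counts per 1000000 UMIs (CPM) in the members of Tsc2 wt/wt replicates 1 to 4 and 848, 856 and 1216 CPM in the 3 Tsc2 mut/mut mice. Replicates 1, 3 and 4 of Tsc2 wt/wt thus stood above the other mice, and their member counts were 10, 6 and 8. In replicate 3, 3 of the 6 members had Adarb2 as their only rule gene and held 45, 60 and 145 oligodendrocyte UMIs. These 3 members had 1955, 2813 and 8948 of the 19332 member UMIs of that mouse, so most of its summed UMIs came from them. The defining oligodendrocyte progenitor markers Pdgfra, Cspg4 and Olig2 were at 0 UMIs in all members, yet that list summed to 1504 CPM in members and 577 CPM in the other nuclei. Its 636 UMIs came mainly from Pcdh15 (348 UMIs, 5.12-fold) and included Vcan (97 UMIs, 5.14-fold). Choroid plexus markers, at 62794 CPM in the other nuclei, were at 196 CPM in members, most of it from Enpp2 (54 of 83 UMIs), with Aqp1, Calml4, Folr1 and Kl at 0. Endothelial markers came to 2 UMIs. The part of these transcripts in any result was not tested.

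Genes of inhibitory neurons and of young neurons led the members' profile. CPM were computed on the UMIs summed over the members of a mouse, and means are over the 7 mice with members. The 20 genes with the largest fold over the other nuclei, among 1435 genes with at least 100 CPM and a UMI in every mouse with members, were all higher than the other nuclei in each of those mice. For comparison, 29.9% of 22407 detected genes were higher in members, with a median log2 fold of -0.29. The members were chosen on these counts, and 6 of the 20 were used by the rule or by the sorting into young and mature below, so these folds are a description with no test.

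Dlx6os1 reached 1131, 1311, 466 and 1180 CPM in the members of Tsc2 wt/wt mice and 1696, 523 and 1323 CPM in those of Tsc2 mut/mut mice, a mean of 1090 ± 446 (SD, n = 7) against 19.7 in the other nuclei, or 52.8-fold. Gad2 was 41.3-fold higher and Gad1 26.8-fold higher. Gad1 was the steadiest of the 3, with 429, 461, 310 and 354 CPM in Tsc2 wt/wt and 416, 380 and 313 CPM in Tsc2 mut/mut. Adarb2 ran from 2313 to 7479 CPM and was 41.0-fold higher, and Dlx1 was 29.0-fold higher. Dlx2 contributed 5 UMIs in all, so the rule in practice rested on the other 5 genes.

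Nrxn3, which the rule did not use, had 26995, 25685, 6673 and 21309 CPM in Tsc2 wt/wt members and 24826, 17871 and 21337 CPM in Tsc2 mut/mut members. Tsc2 wt/wt replicate 3, with 6 members, stood below the other mice. Of these, 3 were the members rich in oligodendrocyte UMIs given above, whose part in the values of that mouse was not tested. The mean of 20671 ± 6917 (SD, n = 7) stood 22.9-fold over the 902 CPM of the other nuclei. After each nucleus was thinned to 1000 UMIs, Nrxn3 was detected in 93.1% of the 131 members deep enough and in 29.6% of 1206 astrocyte-like nuclei, defined by the rule's astrocyte genes (median UMIs before thinning 2033 and 3443). Unthinned shares were 94.4% and 45.4%.

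Dcx, the microtubule-binding protein of migrating neuroblasts, had 624, 343, 103 and 354 CPM in Tsc2 wt/wt members and 254, 190 and 411 CPM in Tsc2 mut/mut members, 32.4-fold over the other nuclei. It was detected in 30.5% of thinned members and 0.498% of thinned astrocyte-like nuclei (44.1% and 1.04% unthinned), and at 6.55 CPM in free RNA, taken from the 20000 barcodes with the fewest UMIs in each library. Other neuronal differentiation genes among the 20 were the zinc finger factors Bcl11a (20.4-fold), Bcl11b (14.9-fold), Myt1l (14.7-fold) and Myt1 (14.6-fold), the splicing regulator Srrm4 (14.6-fold) and the growth cone protein Dpysl5 (18.4-fold). Pbx3, a homeodomain cofactor, was 17.0-fold higher and Synpr, a synaptic vesicle protein, 18.8-fold higher.

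The rest of the 20 were Slit1, a secreted guidance cue (22.5-fold), Epha6, an ephrin receptor (19.5-fold), the glycosyltransferase Galnt17 (17.4-fold), the postsynaptic protein Lrrc7 (16.1-fold) and the calcium channel subunit Cacna1c (15.6-fold). Their steadiness differed. Galnt17 had 156, 106, 103 and 684 CPM in Tsc2 wt/wt members and 76.3, 998 and 35.8 CPM in Tsc2 mut/mut members, so that 2 mice with 8 members each set its mean. Epha6 likewise ran from 51.7 to 1015 CPM, while Lrrc7 stayed between 828 and 2100 CPM.

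**Figure D2:**
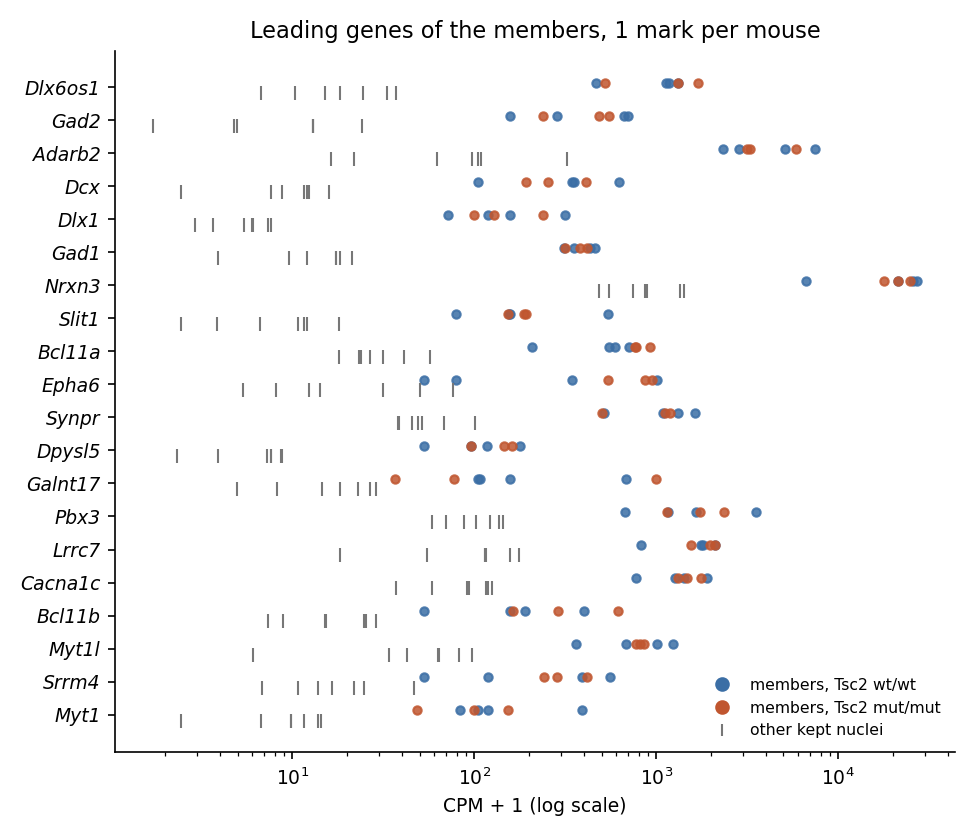
CPM + 1 on a log axis (x) for the 20 leading genes (y), with 1 point per mouse for its summed members, coloured by genotype, and 1 tick per mouse for its other kept nuclei. For each gene every mouse's members lie above its other nuclei, and Gad1 spreads little between mice while Galnt17 spreads widely.

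Markers of olfactory bulb interneurons were higher in members than in the other nuclei. Summed over 9 genes they had 9954 CPM in members and 1727 CPM in the other nuclei, and 8 of the 9 were higher. Meis2, a homeodomain factor of the olfactory bulb and striatal lineages, had 6281, 2954, 983 and 2737 CPM in Tsc2 wt/wt members and 3417, 1616 and 4273 CPM in Tsc2 mut/mut members, an 8.43-fold difference over the other nuclei, and was detected in 75.6% of thinned members. Astrocyte-like nuclei also held it, at 43.0% after thinning (80.4% and 72.5% before it). Th, the dopamine-synthesis enzyme of one olfactory bulb type, was at 0, and Calb2, which marks another, had 4 UMIs.

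Markers of mature neuron types were uneven. The 16 striatal projection neuron markers summed to 1849 CPM in members and 919 CPM in the other nuclei, and 13 of them were higher, among them Bcl11b (102 UMIs, 14.9-fold), Arpp21 (178 UMIs, 3.63-fold) and Pde10a (209 UMIs, 2.08-fold). Foxp1 had 181 UMIs at 1.10-fold. The dopamine and adenosine receptors and the phosphatase inhibitor of that list were low, with Adora2a at 0, Drd1 at 3 UMIs, Drd2 at 4 and Ppp1r1b at 6. The 18 cortical and striatal interneuron markers summed to 1393 CPM in members and 884 CPM in the other nuclei, and 8 were higher. Nxph1 had 263 UMIs (5.85-fold) and Sox6 162 UMIs (0.591-fold), Chat and Lamp5 were at 0, and Sst had 1 UMI, Npy 1, Pvalb 2, Lhx6 6 (all in 1 nucleus) and Vip 7 (in 3 nuclei). Excitatory neuron markers had 873 CPM in members, 498 CPM in the other nuclei and 2852 CPM in free RNA, with Camk2a at 255 UMIs (2.14-fold) and Emx1 and Slc17a6 at 0. Slc32a1, the vesicular GABA transporter, had 12 UMIs in 10 members. Cycling and progenitor markers were sparse, with 46 UMIs in 15 members over 7 genes. They summed to 109 CPM in members, 172 CPM in the other nuclei and 18.4 CPM in free RNA, and 4 of the 7 were higher in members. Egfr led with 22 UMIs in 9 members (0.265-fold). Mki67 had 7 UMIs in 3 members (3.02-fold) and Top2a 12 UMIs in 4 members (4.76-fold). At this depth an absent marker does not show that the transcript was lacking in the nucleus.

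To see what separated young from mature transcripts, each member was placed by lists of 6 genes. Young genes were Dcx, Sox11, Sox4, Cd24a, Igfbpl1 and Nrep, and the mature genes included Rbfox3, Syt1, Grin2a, Scn1a and Ryr2. A member with at least 3 UMIs over both lists was called young-leaning if the young list had more UMIs and mature-leaning if the mature list had more. This gave 46 young-leaning and 31 mature-leaning members, 2 ties and 64 with under 3 UMIs. A leaning is a range of counts and not a cell type.

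Many nuclei held UMIs of both lists. UMIs of the young list alone were found in 62 members, of the mature list alone in 24, of both in 40 and of neither in 17, and 7 members held at least 3 UMIs of each. Young-leaning members numbered 4, 11, 1 and 3 in Tsc2 wt/wt replicates 1 to 4 and 10, 2 and 15 in the 3 Tsc2 mut/mut mice, while mature-leaning members numbered 0, 5, 0 and 1 and then 13, 3 and 9. Mature-leaning members were deeper, with a median of 3911 UMIs against 2453 in young-leaning members and 1632 in members under 3 UMIs of the lists. Of 913 mature-list UMIs, 519 came from the 7 members with over 10000 UMIs. In 13 of 31 mature-leaning members, and in 3 of 46 young-leaning ones, another class list exceeded the inhibitory genes, and whether this bears on the contrast was not tested because too few members remained without them.

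The share of the 2 lists' UMIs that fell on young genes was 87.2%, 30.6%, 75.0% and 11.5% in Tsc2 wt/wt members and 32.3%, 8.66% and 25.4% in Tsc2 mut/mut members, or 51.1% ± 35.9 (SD, n = 4) against 22.1% ± 12.2 (SD, n = 3). These pooled shares overlapped, and a score built on chosen members was not tested. Averaged over nuclei instead of pooled, the shares were 75.4%, 76.1%, 75.0% and 73.3% against 53.4%, 57.8% and 63.8%, and after thinning to 1000 UMIs 83.3%, 53.2%, 66.7% and 40.0% against 38.9%, 12.2% and 48.8%. Averaged over nuclei all 4 Tsc2 wt/wt mice lay above all 3 Tsc2 mut/mut mice, and after thinning the groups overlapped. That average gives a nucleus with 1 list UMI the same weight as a deep nucleus. Tsc2 wt/wt replicate 3 held only 6 young-list and 2 mature-list UMIs in all, so its value rests on very few counts. The pooled value in Tsc2 wt/wt replicate 4 came chiefly from 1 nucleus of 17135 UMIs with 190 of the 192 mature-list UMIs of that mouse.

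**Figure D3:**
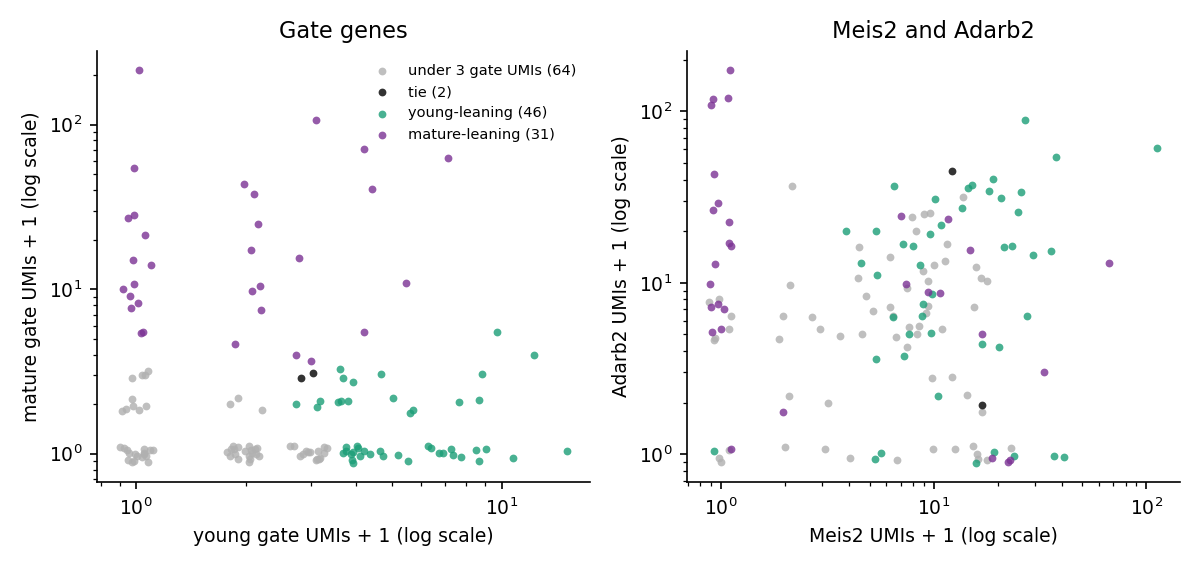
Left, mature-list against young-list UMIs + 1 for each of the 143 members, and right, Adarb2 against Meis2 UMIs + 1, all on log axes with slight jitter. On the left 40 members hold UMIs of both lists, and on the right a column of mature-leaning members sits at 0 Meis2 UMIs where 1 young-leaning member does.

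Transcripts outside these lists were then tested between young-leaning and mature-leaning members. UMIs were summed per mouse and leaning in the 3 mice with at least 5 members of each, namely Tsc2 wt/wt replicate 2 and Tsc2 mut/mut replicates 1 and 3, and fitted with edgeR's quasi-likelihood test with the mouse as a block. The 12 list genes and the 9 rule genes were removed first, so the test asks which other transcripts moved with them in the same nuclei. Of 633 genes tested, 72 were higher in young-leaning members (11.4%) and 154 were higher in mature-leaning members (24.3%) at a Benjamini-Hochberg adjusted p under 0.05, and the median log2 fold change of all genes was -0.08. Of the tested genes 47 had at most 3 UMIs in one leaning and entered the fit through the other, so their direction was fixed. They made up 46 of the 154 and 1 of the 72, and without them 71 (12.1%) and 108 (18.4%) of 586 genes were called. In such sums, fewer nuclei with a transcript and less of it per nucleus cannot be told apart. The calls rest on Tsc2 wt/wt replicate 2. Without that mouse 0 of 796 genes passed in edgeR, with 244 at an unadjusted p under 0.05 and a smallest adjusted p of 0.0627. Of the called genes 224 could still be tested there, and all 224 kept their direction, which was fixed for those at most 3 UMIs in one leaning. This is no independent check, because the calls had used the same mice. All 72 young-side and 151 of the 154 mature-side genes already had the same direction in every mouse, beside 421 of the 633 tested genes. With all 3 mice, DESeq2 called 37 and 138.

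Of the genes fixed as further marks of young neurons, most that could be tested were higher in young-leaning members. Of 20 further young-neuron genes, 6 could be tested, of which 4 were higher (Tiam2, Ccnd2, Robo2 and Nfib), Robo1 was lower and Pak3 did not pass. The median log2 fold change of the 6 was 1.95 beside -0.08 for all genes tested, and the 4 and 1 of 6 stand beside 11.4% and 24.3% of all tested genes. Tiam2, a guanine nucleotide exchange factor for Rac, had 824, 1276 and 641 CPM in young-leaning and 25.6, 58.9 and 37.8 CPM in mature-leaning members of Tsc2 wt/wt replicate 2, Tsc2 mut/mut replicate 1 and Tsc2 mut/mut replicate 3, in that order, which is kept in what follows. The log2 fold change was 4.15 ± 0.57 (SE, edgeR adjusted p = 0.000771), and the ranges did not overlap.

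Robo2 and Robo1, receptors for Slit guidance cues, moved in opposite directions. Robo2 had 3707, 6713 and 6093 CPM in young-leaning and 1305, 1551 and 642 CPM in mature-leaning members, a log2 fold change of 2.07 ± 0.43 (edgeR adjusted p = 0.00475). Robo1 had 1407, 94.5 and 175 CPM in young-leaning and 1919, 2159 and 3266 CPM in mature-leaning members, a log2 fold change of -2.93 ± 0.81 (edgeR adjusted p = 0.0186), and in Tsc2 wt/wt replicate 2 the difference was small. Among 8 tested genes of neuronal migration, Robo2 alone was higher, and Dab1, the reelin adaptor, Robo1 and Dcc, the netrin receptor, were lower, with a median log2 fold change of 0.09 over the 8. Here too 1 and 3 of 8 stand beside 11.4% and 24.3% of all tested genes. Erbb4, the neuregulin receptor, did not pass, at 10228, 8414 and 7376 CPM in young-leaning and 10642, 7459 and 2964 CPM in mature-leaning members.

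Of the 9 olfactory bulb genes 4 could be tested, and 3 were higher in young-leaning members, among them Meis2 (2.19 ± 0.50) and Pbx3 (1.47 ± 0.42) on the log2 scale, and Synpr did not pass (0.27 ± 0.53), with a median of 1.62. These 3 of 4 stand beside 11.4% of all tested genes. Meis2 had 5182, 6949 and 6181 CPM in young-leaning and 409, 1217 and 2662 CPM in mature-leaning members. Both tested members of the cortical and striatal interneuron list, the transcription factor Sox6 and the neurexin ligand Nxph1, were also higher in young-leaning members, at log2 fold changes of 3.50 ± 0.65 and 2.36 ± 0.45, beside the same 11.4%. Nrxn3 was higher by 1.25 ± 0.19 (edgeR adjusted p = 0.000991), with 39640, 40087 and 30117 CPM against 14249, 16390 and 10006 CPM.

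Most of the further mature-neuron genes that could be tested were higher in mature-leaning members. Of 25 further mature-neuron genes, 12 could be tested and 8 were higher in mature-leaning members, while Gabrb2, Map2, Snap25 and Gria2 did not pass and none was higher in young-leaning members. The median log2 fold change of the 12 was -2.07, and the 8 of 12 stand beside 24.3% of all tested genes. The largest were the potassium channel Kcnq5 (-4.35 ± 0.89), the scaffold Dlg2 (-4.29 ± 0.41), the vesicle protein Syn2 (-3.72 ± 0.78) and the calcium-activated potassium channel Kcnma1 (-3.24 ± 0.71). Dlg2 had 378, 378 and 350 CPM in young-leaning and 5986, 5418 and 7533 CPM in mature-leaning members, and varied little between mice within a leaning. The glutamate receptor subunits Gria1 (-2.74 ± 0.52) and Grin2b (-1.70 ± 0.45), the active zone protein Rims1 (-2.25 ± 0.53) and the inhibitory scaffold Gphn (-1.88 ± 0.43) made up the 8.

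Of 8 tested adhesion molecules of synapses, Nrxn3 was higher in young-leaning members, Cntnap5a, Cntnap2 and Lrrtm4 were higher in mature-leaning members, and the others, among them Lrrtm3, Nlgn1 and Nrxn2, did not pass, with a median of -1.54. These 1 and 3 of 8 stand beside 11.4% and 24.3% of all tested genes, and Cntnap5a is one of those whose direction was fixed. Cntnap2, a contactin-associated protein, had 172, 331 and 641 CPM against 3479, 3180 and 6513 CPM, a log2 fold change of -3.80 ± 0.46 (edgeR adjusted p = 0.000649). Of the striatal projection neuron genes, the phosphodiesterase Pde10a was higher in mature-leaning members (-3.71 ± 0.57), and Arpp21 and Foxp1 did not pass.

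**Figure D4:**
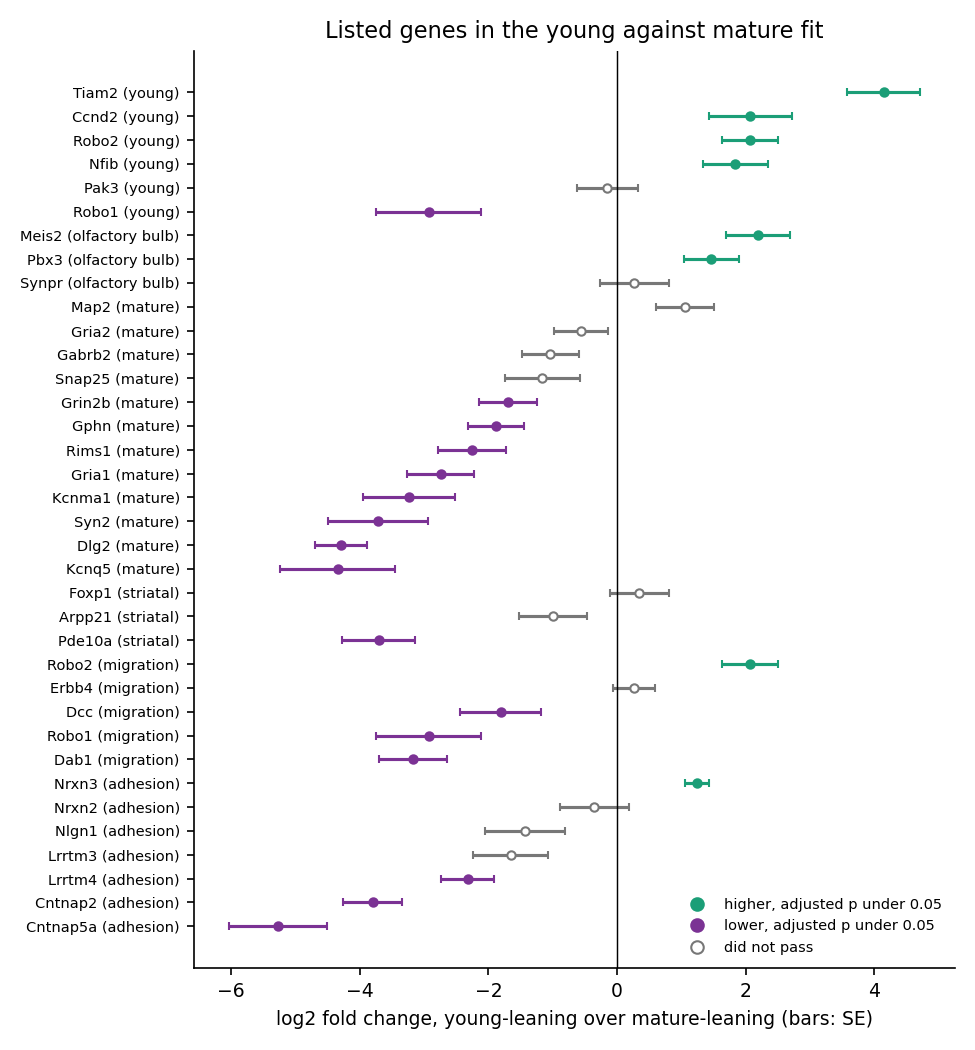
log2 fold change of young-leaning over mature-leaning members (x axis), with SE bars from edgeR, for the named genes tested in 6 lists (y axis, list in brackets; Robo1 and Robo2 are in 2 lists). Filled points passed an adjusted p of 0.05; the mature-neuron genes lie left of 0 apart from Map2, and the olfactory bulb genes lie right of it.

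The 12 genes furthest to the young side were Mob3b, Tiam2, 2610307P16Rik, St6gal1, Sox6, Tox3, Nfia, Map2k6, Zfp704, Spon1, Sdk2 and Mpped2, with log2 fold changes from 4.72 to 2.71. Mob3b, a kinase-adaptor family member at chr4:34949074-35157484, had 446, 520 and 583 CPM in young-leaning and 25.6, 19.6 and 0.0 CPM in mature-leaning members. With 44 against 2 UMIs its ratio was 37.2 (95% counting interval 9.70 to 317), and it was 58.1 without Tsc2 wt/wt replicate 2 and 21.5 without Tsc2 mut/mut replicate 3. The noncoding 2610307P16Rik had 2059, 2884 and 2274 CPM against 128, 196 and 56.6 CPM, a log2 fold change of 4.09 ± 0.54 (edgeR adjusted p = 0.000658), and it was seen in 45 of the 46 young-leaning members over all mice. Tox3 and the nuclear factor I gene Nfia, transcription regulators, followed at 3.42 ± 0.74 and 3.37 ± 0.57, and St6gal1, a sialyltransferase, at 3.58 ± 0.65.

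The 12 genes furthest to the mature side had 0 UMIs in the young-leaning members of the 3 mice. They were Galntl6, Hs6st3, Snhg11, Sgcz, Lrfn5, Frmpd4, Zfp804a, Zmat4, Trpm3, Alcam, Prr16 and Grid1. Their fitted folds depend on how 0 is handled, and bounds were computed with 3 counts over the young-leaning sum. Galntl6, a member of the N-acetylgalactosaminyltransferase family at chr8:57774052-58912640, had 9388, 5673 and 1510 CPM in mature-leaning members and was at least 145-fold higher. Hs6st3, a heparan sulfate sulfotransferase, was at least 52.1-fold higher, Snhg11 at least 41.6-fold and the adhesion protein Lrfn5 at least 36.3-fold higher. These bounds rest in part on single mice. Without Tsc2 wt/wt replicate 2 they were 65.6-fold for Galntl6, 28.1-fold for Hs6st3, 25.1-fold for Snhg11 and 19.2-fold for Lrfn5. Without Tsc2 mut/mut replicate 1 the bound for Hs6st3 was 31.0-fold, and without Tsc2 mut/mut replicate 3 that for Snhg11 was 27.0-fold. Snhg11 varied less between mice, at 1791, 1472 and 1246 CPM, than Galntl6. In Tsc2 wt/wt replicate 2, 198 and 131 of its 367 UMIs came from 2 nuclei, the first of which had 17704 UMIs, 45.3% of that sum, and also 89 UMIs of the oligodendrocyte progenitor list. Of the 154 genes on the mature side, 21 had 0 and 25 had 1 to 3 UMIs in young-leaning members.

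**Figure D5:**
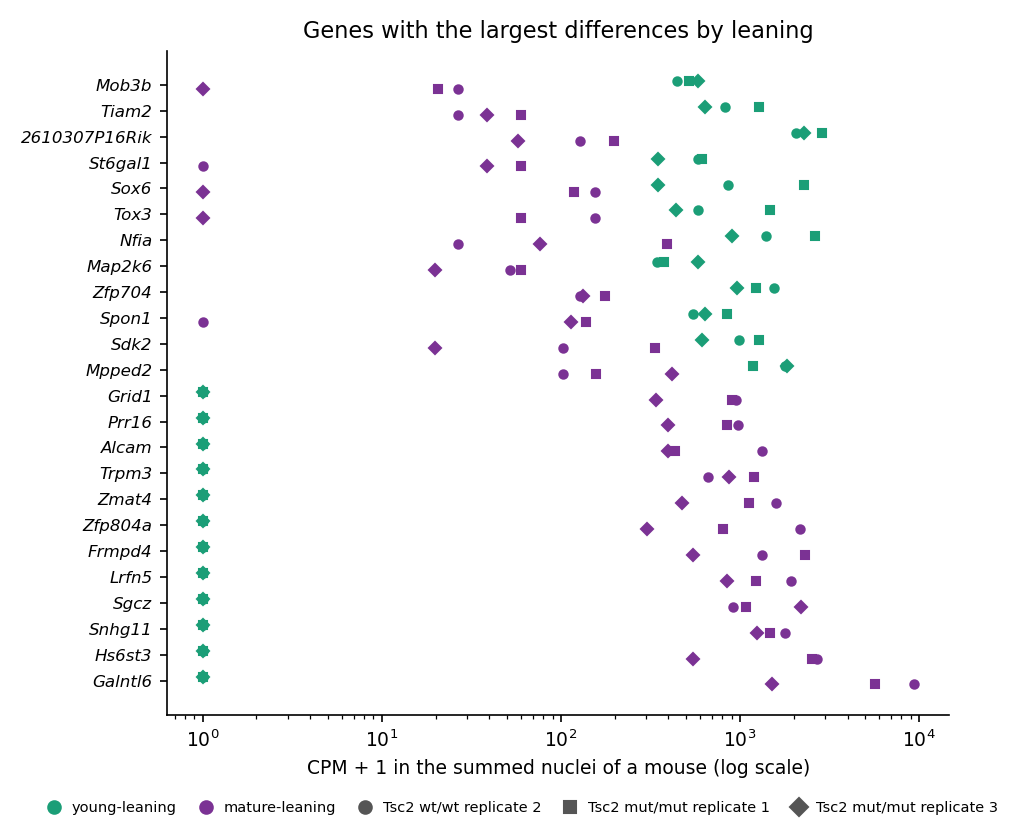
CPM + 1 on a log axis (x) for the 24 genes with the largest differences (y), for young-leaning and mature-leaning members of each of the 3 mice (shape). Values do not overlap between leanings, and the lower 12 genes were at 0 in young-leaning members of all 3 mice.

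Gene span on GRCm38 had a median of 248 kb over all 633 tested genes, 170 kb over those higher in young-leaning members and 500 kb over those higher in mature-leaning members, where 50.0% spanned over 500 kb against 22.2% of all and 12.5% of the young side. The young side held 4 ribosomal protein genes, Fau counted among them, and 4 mitochondrial genes, of 29 and 11 tested and beside 11.4% of all tested genes, and the mature side held 0 of either. Among them mt-Co1 had 11566, 19949 and 18426 CPM against 4681, 9382 and 11498 CPM, a log2 fold change of 0.82 ± 0.24. Mitochondrial UMIs as a whole were 8.29%, 12.9% and 10.5% of young-leaning and 3.28%, 5.75% and 7.01% of mature-leaning UMIs. The part of depth in these differences was not fully tested. With every member thinned to 1000 UMIs only 82 genes could be tested, of which 3 were higher and 7 lower, all 10 of them among the genes called at full depth. Of the 226 genes called at full depth 48 could still be tested there, and 38 of these no longer passed, while 47 of the 48 kept their direction. TAATTA was found in 4.08% of the 49 promoter windows matched on the young side and 6.78% of the 118 matched on the mature side, beside 5.22% of the 479 matched among all tested genes.

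Few marker genes of other classes could be tested. Slc1a2 and Slc4a4 of the astrocyte list, Mbp of the oligodendrocyte list and Camk2a of the excitatory list did not pass. Of the oligodendrocyte progenitor list, Pcdh15 did not pass, and Tnr, an extracellular matrix protein that interneurons express as well, had 281, 648 and 359 CPM in mature-leaning members and 0 UMIs in young-leaning members, so that it entered the fit through the mature-leaning sums alone. That list summed to 652, 1371 and 962 CPM in young-leaning and 3274, 1629 and 2247 CPM in mature-leaning members, with Pdgfra, Cspg4 and Olig2 at 0.

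The mature-leaning members were not uniform. Meis2 had at least 1 UMI in 45 of 46 young-leaning members and in 13 of 31 mature-leaning members. The 18 mature-leaning members without Meis2, spread as 3, 1, 9, 2 and 3 over Tsc2 wt/wt replicates 2 and 4 and Tsc2 mut/mut replicates 1, 2 and 3, had a median of 15.5 Adarb2 UMIs against 7 in the 13 with Meis2. This split was made after its values were seen and carries no test. Pooled over mice, Adarb2 was at 6681 CPM in young-leaning members, 6216 CPM in mature-leaning members without Meis2 and 1536 CPM in those with it. Galntl6 was at 5957 CPM without Meis2 and 1443 CPM with it, and Hs6st3 at 2220 and 522 CPM. The values with Meis2 rest largely on Tsc2 mut/mut replicate 3, without which Adarb2 was at 2517 CPM and Hs6st3 at 265 CPM.

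Other transcripts followed the leaning in both subsets. Dlg2 was at 6428 CPM without Meis2 and 6496 CPM with it, against 371 CPM in young-leaning members, and Kcnq5 was at 1961 and 1704 CPM against 86.2 CPM. Robo2 was at 925 and 1305 CPM against 5871 CPM, and 2610307P16Rik at 0.0 and 276 CPM against 2405 CPM. Without Tsc2 mut/mut replicate 3 the values with Meis2 became 3091 CPM for Dlg2, 883 CPM for Kcnq5, 2738 CPM for Robo2 and 662 CPM for 2610307P16Rik, and without Tsc2 mut/mut replicate 1 Robo2 became 706 CPM and 2610307P16Rik 149 CPM. Kcnq5 without Meis2 was at 1063 CPM without Tsc2 wt/wt replicate 2, and in young-leaning members at 31.6 CPM without Tsc2 mut/mut replicate 1. Each of these genes kept the side of the young-leaning value on which it lay. The striatal gene Pde10a was at 1597 CPM with Meis2 and 684 CPM without it, and Dcx, one of the placing genes, was at 897 CPM in young-leaning members, 261 CPM with Meis2 and 46.2 CPM without it. Pde10a with Meis2 was at 883 CPM without Tsc2 mut/mut replicate 3, and in members without Meis2 Pde10a was at 446 CPM and Dcx at 13.1 CPM without Tsc2 wt/wt replicate 2. Because Meis2 differs between the leanings, neuronal age and lineage cannot be told apart in this contrast.

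Genotype was compared within all members, with UMIs summed in each of the 3 Tsc2 mut/mut and 4 Tsc2 wt/wt mice that had members. Of 782 genes tested, 0 were higher and 0 lower in Tsc2 mut/mut at an adjusted p under 0.05 by edgeR (0.0% each way), with 50 at an unadjusted p under 0.05 and a smallest adjusted p of 0.704. DESeq2 also called 0, with 58 at an unadjusted p under 0.05.

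Tsc2 itself (chr17:24595816-24632630, minus strand) had 6 UMIs in members, 0, 0, 0 and 2 in Tsc2 wt/wt and 1, 2 and 1 in Tsc2 mut/mut, so it was too sparse to test, and 3′ counts do not show whether the conditional part of the gene was deleted. The 16 genes of the mTOR pathway list summed to 1483 CPM in members and 1230 CPM in the other nuclei. Nrxn3 had a log2 fold change of 0.12 ± 0.41, Dcx -0.25 ± 0.47 and Syt1, the synaptic calcium sensor, 0.79 ± 0.90. None of the 13 tested mature-neuron genes (median 0.38) and none of the 8 tested young-neuron genes (median 0.04) passed, beside a median of 0.06 for all genes.

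The genes with the lowest unadjusted p were Selenow, Rpl39 and Rpsa on the higher side and, on the lower side, genes that included Pak1 and Pde4b in Tsc2 mut/mut, each with an edgeR adjusted p of 0.704. Selenow, a selenoprotein, had 234, 284, 155 and 189 CPM in Tsc2 wt/wt and 526, 570 and 572 CPM in Tsc2 mut/mut members. Its groups did not overlap, and the log2 fold change was 1.31 ± 0.35. The ribosomal protein genes Rpl39 and Rpsa had log2 fold changes of 1.84 ± 0.57 and 1.13 ± 0.37. All 3 were more abundant in free RNA than in members, at 2385 against 361 CPM for Selenow, 2033 against 238 CPM for Rpl39 and 2093 against 269 CPM for Rpsa. Tsc2 mut/mut members also had the higher mitochondrial shares given above, and the part of either in these values was not tested. The 5 tested oligodendrocyte genes had a median log2 fold change of -2.63 and none passed, and 3 of the 4 Tsc2 wt/wt mice were those with the high oligodendrocyte sums given above, whose part in this was not tested.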

How the data were processed

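Nuclei were sequenced with the 10x Genomics 3′ kit version 3.1. From each mouse, 100000 nuclei positive for tdTomato were sorted by the authors, who ran Cell Ranger 7.0.1 on GRCm38 (mm10) and deposited raw UMI counts for 60000 barcodes per mouse, with no normalization. Seurat 4 is named in the submitters' processing notes, and its clusters were not used here. Whether intronic reads were counted is not given in the sources used here. Total UMIs were 15527909, 33345765, 11182335 and 18671572 in Tsc2 wt/wt and 30917754, 21908321, 36773832 and 29509629 in Tsc2 mut/mut replicates 1 to 4. The few members per mouse limit precision, and intervals cover counting error only.

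Members, gene lists and tests were chosen with earlier results of these data known. UMIs summed per mouse were tested with edgeR 4.0.16 (glmQLFit and glmQLFTest, TMM, filterByExpr) in R 4.3.3, with DESeq2 1.42.0 as an alternative; the mouse was a block in the young against mature fit only. Scripts were tested on simulated data. Named genes were the rule and marker genes, list members that passed or else the most abundant, 20 profile genes, 12 per direction by fold in young against mature, 3 per direction by p for genotype, and Tsc2; some genes these rules name are not reported here. Genes in the Meis2 split, and Robo1 and Robo2 set side by side, were chosen after their values were seen, as were the counts without genes at 3 UMIs or fewer in a leaning and the bounds and split without each mouse. Alternatives changed the filters, the rule, the normalization, the test, the depth and the mice.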

Additional observations from a re-analysis of the deposited data

Results flagged for a closer look

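Among 38 sets of 4 Tsc2 wt/wt values, 4 had 1 mouse far from the other 3, where chance gives about 1 set in 20. Only Tsc2 wt/wt, with 4 mice holding members, could be examined in this way. Slit1 had 543 CPM in the members of replicate 4 against 78.0 to 155 CPM in the others. Galnt17 had 684 CPM in the same mouse against 103 to 156 CPM. Myt1 had 390 CPM in replicate 1 against 82.7 to 118 CPM. The endothelial list had 23.6 CPM in replicate 2, which is 2 UMIs, and 0.0 CPM in the others. Replicates 1 and 4 had 10 and 8 members.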

How the results depend on the processing

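The difference in share (Tsc2 mut/mut minus Tsc2 wt/wt, main -0.125 percentage points) changed sign with a minimum of 200 genes (0.298), at most 60% mitochondrial UMIs (0.000742), an inhibitory sum of at least 6 (0.0848), all barcodes with 300 genes as denominator (0.0103) and, in settings added after seeing the data, without members led by another class (0.0709) and with at least 2 rule genes (0.211). Leaving out each mouse gave -0.979 to 0.746, and p stayed between 0.286 and 1.0. The difference in median UMIs became 171 at 10% mitochondrial UMIs and ran from -454 to -101 without each mouse, with p from 0.114 to 0.857 over all settings. The mitochondrial difference passed the threshold with no limit on the astrocyte genes (4.83 percentage points, exact permutation p = 0.0286) and ran from 3.34 to 4.72 without each mouse. It was 0.481 (exact permutation p = 0.743) at 10% mitochondrial UMIs, a limit on the compared quantity itself that cannot test it. Over the other settings the exact permutation p ran from 0.0286 to 0.286. The young share ran from 39.0% to 64.3% in Tsc2 wt/wt and from 17.1% to 28.9% in Tsc2 mut/mut without each mouse. In the same order of groups it became 70.2% and 39.5% without members led by another class and 75.0% and 58.3% averaged over nuclei. It was 73.2% and 29.1% without the 5% deepest members. At 10% mitochondrial UMIs it was 51.1% and 12.4%, and with no limit on the astrocyte genes 35.2% and 20.1%. For young against mature (72 and 154 genes), counts were 37 and 127 without the 5% deepest members, 37 and 138 with DESeq2, 37 and 98 with 5 UMIs over both lists, 3 and 7 after thinning and 58 and 308 with no filter on low counts, and ran from 0 to 59 and 0 to 148 without each mouse. Of the alternative values of the 24 named genes, 368 kept their direction and side of the threshold, 31 missed the threshold, 24 of them without Tsc2 wt/wt replicate 2, and 0 reversed, though the 12 at 0 UMIs in young-leaning members had no room to reverse. For genotype, no filter on low counts gave 2 higher genes (Cdh18, Unc13c) and 5 lower (among them Prr5l, D7Ertd443e, Ptgds and Ninj2), and leaving out each mouse gave 0 to 1 and 0, the 1 being Snhg11 without Tsc2 wt/wt replicate 2. The cause of these changes was not tested. A maximum of 10% mitochondrial UMIs and leaving out members led by another class left fewer than 2 mice for young against mature, which was not run there.

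Mice with the same replicate number did not stand out, with correlations of 0.0545, -0.0568 and 0.135. Pairs with different numbers ran from -0.303 to 0.362. With so few members per mouse this cannot show whether the mice were paired. With a replicate block the share difference was -0.125 (exact sign-flip test over 4 pairs, p = 0.875). The depth difference was -101 and the mitochondrial difference 3.34 (exact sign-flip test over 3 pairs, p = 0.25 each). With 3 pairs 0.25 is the smallest p possible, so neither could have passed and this test cannot decide. The genotype calls with the block were 0 higher and 0 lower of 983. Precision rests on a median of 2033 UMIs per member and on 7 mice.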
